A study of Mus musculus with 6 samples.

Results

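The genes described here encode the NRF2 pathway with the glutathione and thioredoxin systems it feeds, the main enzymes by which a cell removes peroxides and keeps its thiols reduced. They were chosen by name: 43 gene symbols were listed, and all 43 were found among the 15458 rows of the count table and passed the filter on low counts. The RNA was that of sorted Kupffer cells (macrophages that live in the liver sinusoids), taken by flow cytometry from C57BL/6 mice on day 18 after implantation of Hepa1-6, a mouse hepatoma line. In the KC_Epo group (n = 3 libraries) the tumour cells overexpressed erythropoietin, the hormone that drives red cell formation. In the KC_EV group (n = 3 libraries) they carried the empty vector. The mice of both groups are labelled wild type, so the only stated difference lies in the implanted tumour cells. The sources used here do not give the sort gate. The labels number the libraries of a group but do not say whether each came from a separate animal or from pooled animals, so every p-value speaks of the spread among these 6 libraries only.

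NRF2, encoded by Nfe2l2, is a transcription factor that KEAP1 holds in the cytoplasm and hands to the proteasome. Oxidants and electrophiles modify cysteines of KEAP1, NRF2 then accumulates, pairs with a small MAF protein and binds antioxidant response elements, while BACH1 competes for the same elements until heme displaces it. The targets make glutathione, reduce thioredoxin, supply NADPH and conjugate or export electrophiles. Kupffer cells take up aged red cells and degrade their hemoglobin, a source of heme and reactive iron.

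In KC_Epo libraries 23 of the 43 genes rose (53.5%, against 16.9% of all genes tested) and 6 fell (14.0%, against 15.4%). Gpx3, an extracellular glutathione peroxidase, was 3.17-fold higher, Mgst1, a membrane-bound glutathione transferase, 2.90-fold higher, and Gclm, the modifier subunit of the enzyme that limits glutathione synthesis, 2.04-fold higher. The transcripts of NRF2 itself (Nfe2l2), thioredoxin (Txn1), Prdx6 and Sod2 were among those that fell. Levels are CPM (reads of a gene relative to the size of its library, scaled by TMM factors), and differences are log2 fold changes of KC_Epo over KC_EV ± SE from edgeR, called at an adjusted p of 0.05.

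Epo, read as a check of the groups, had 29, 44 and 21 counts in KC_Epo 1 to 3 and 0 in each KC_EV library. Library totals ran from 23201076 to 33280754 counts. The summed level of 15 Kupffer cell markers was 56177 to 64387 CPM in KC_Epo and 38581 to 41412 CPM in KC_EV. Other cells' transcripts also differed: the hepatocyte sum (24 markers, 13 higher and 0 lower) was 7684 to 25750 CPM in KC_Epo and 3881 to 4837 CPM in KC_EV, the erythroid sum (7 of 10 markers tested, all 7 higher) 606 to 1109 and 33.5 to 43.1 CPM, and the sinusoidal endothelial sum (15 markers, 1 higher and 13 lower) 2454 to 3541 and 5692 to 6739 CPM. Further sums that did not overlap were lower for dendritic cells (8 markers, 5 lower, 113 to 117 CPM in KC_Epo and 158 to 172 CPM in KC_EV) and for stellate cells and fibroblasts (9 markers, 3 lower, 39.4 to 95.1 and 124 to 133 CPM). The cholangiocyte sum was also lower (6 markers, 2 lower, 4.60 to 8.16 and 17.0 to 45.9 CPM). That of Hepa1-6 tumour cells was narrowly lower (2 of 6 markers tested, 1 lower, 8.33 to 8.68 and 8.79 to 12.3 CPM). Higher sums without overlap were those of megakaryocytes and platelets (6 markers, 3 higher, 52.6 to 57.9 and 36.9 to 39.5 CPM). The B and plasma cell sum was also higher (7 markers, 2 higher, 206 to 211 and 175 to 195 CPM). The part of these cells in the results was not tested. No marker in the table was at 0 in all 6 libraries. In such sorted bulk samples, fewer cells of a type and less RNA per cell cannot be told apart.

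Antioxidant response elements share the core TGACNNNGC, and the stretches that hold it near the starts of these genes are shown because it is the sequence NRF2 is known to bind. RefSeq promoter windows of 300 bases (250 before and 50 after the start, build GRCm38.p6, which is not the GRCm39 build named for the counts) were found for 39 of the 43 genes and searched on both strands. The core stood in 12 of the 39 genes, against 14.0% of the 27025 genes with such windows. By response in KC_Epo it stood in 8 of 20 genes that rose, 2 of 5 that fell and 2 of 14 that did not pass. Cores whose printed stretch lay before the start are given 5′ to 3′ on the gene's own strand, with the core or its reverse complement in capitals and 10 bases on each side in lower case.
Gclm (chr3:122245413-122245441, plus strand): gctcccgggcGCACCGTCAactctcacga
Mgst1 (chr6:138140461-138140489, plus strand): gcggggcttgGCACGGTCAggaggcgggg
Txnrd1 (chr10:82859104-82859132, plus strand): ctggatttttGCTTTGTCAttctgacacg
G6pdx (chrX:74428919-74428947, minus strand): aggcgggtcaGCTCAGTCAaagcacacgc
Prdx1 (chr4:116685456-116685484, plus strand): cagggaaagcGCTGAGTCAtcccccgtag
Mafg (chr11:120633751-120633779, minus strand): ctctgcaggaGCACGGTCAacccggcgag
Nfe2l2 (chr2:75704885-75704913, minus strand): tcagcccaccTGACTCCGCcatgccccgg
Maff (chr15:79346499-79346527, plus strand): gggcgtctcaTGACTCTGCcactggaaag
Sod1 (chr16:90220696-90220724, plus strand): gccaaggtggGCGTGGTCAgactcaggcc
Of these 9 genes, the first 6 rose in KC_Epo, Nfe2l2 and Maff fell, and Sod1 did not pass. The Prdx1 core also matches the more specific motif TGACTCAGC, which overlaps the AP-1 core TGANTCA. That motif stood in 2 of the 39 genes and in 0.503% of all. The other 3 genes with a core were Srxn1, Pgd and Me1, where it reached to within 10 bases of the start or lay after it. A match describes the sequence and not binding, and no match says only that these letters are not in this window.

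In the table as a whole, 16.9% of the 13120 genes tested were higher in KC_Epo and 15.4% lower. Among the 43 genes 53.5% were higher, 23 of 43, and 14.0% were lower, 6 of 43, the second close to the background. Their median log2 fold change was 0.31, against -0.0045 for all genes tested. Genes with more reads were called higher more often: of the 4157 genes with a mean of at least 50 CPM, 31.1% were higher and 11.2% lower, and of the 30 such genes here 21 were higher and 3 lower. The libraries of the groups did not overlap for 24 genes that were higher and 7 that were lower, where 24.1% and 24.2% of all genes did so. With library sizes in place of TMM factors the median of all genes moved to -0.16, and 15 of the 43 genes were higher and 9 lower, with 1193 higher and 3616 lower over the table. The calls lost there were those of Mafg (0.15), Gclc (0.18), Gss (0.27), Srxn1 (0.24), Tkt (0.15), Prdx1 (0.17), Gpx1 (0.11) and Gpx4 (0.19), and Prdx5 (-0.21), Sod1 (-0.34) and Gstp1 (-0.23) were called lower. With upper-quartile factors these counts were 21 and 6 of the 43, and 1724 and 2527 over the table. Without KC_Epo 3, the library of lowest depth, 18 of the 43 were higher and 3 lower, and 1477 and 1251 over the table.

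**Figure D1:**
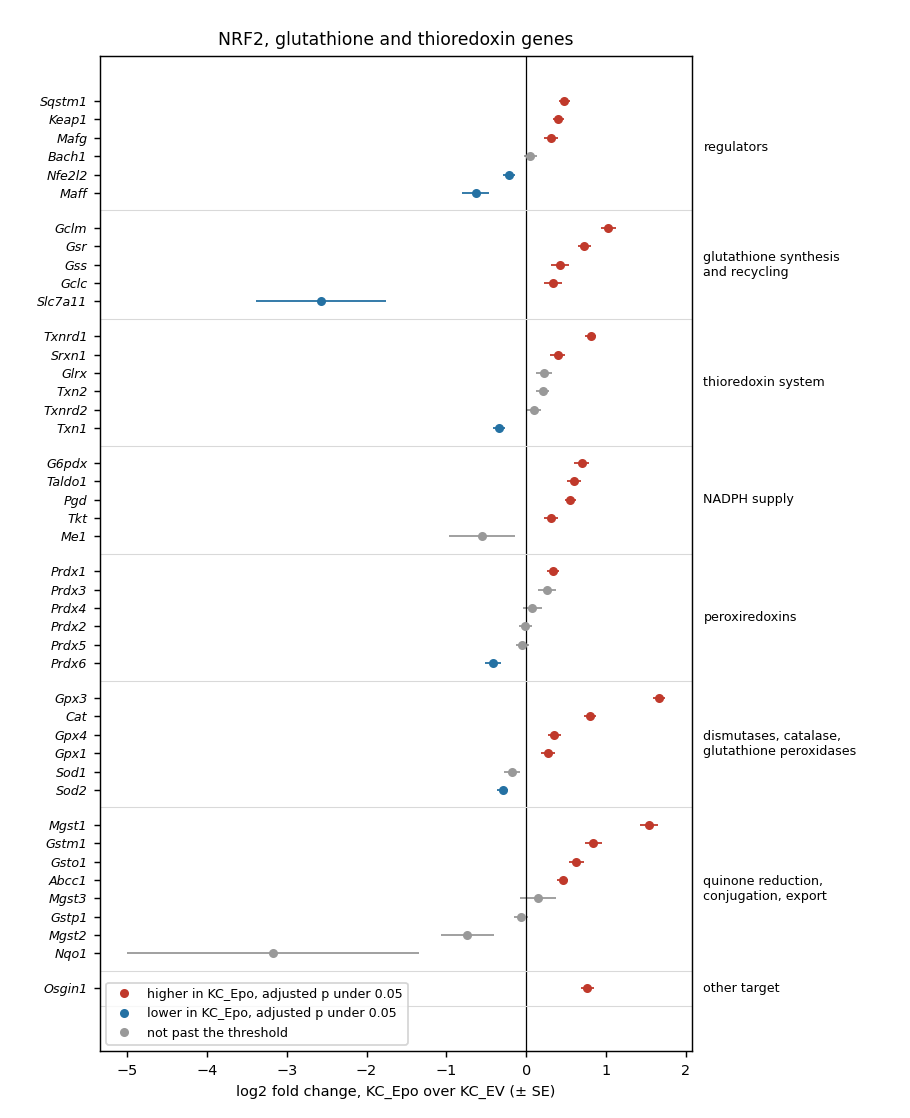
Log2 fold change of KC_Epo over KC_EV (x axis, ± SE of the edgeR fit, 3 libraries a group) for the 43 genes, grouped by role and coloured by call at an adjusted p of 0.05. Points lie from -3.17 (Nqo1, not past the threshold) to 1.66 (Gpx3). Of the 43, 23 genes were called higher and 6 lower, where 16.9% and 15.4% of all genes tested were.

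Among the 6 regulators, Keap1, Sqstm1 and Mafg rose, Nfe2l2 and Maff fell, and Bach1 did not pass. Nfe2l2 was at 197, 169 and 185 CPM in KC_Epo 1 to 3, against 219, 211 and 211 CPM in KC_EV 1 to 3. The groups did not overlap, and the difference was small at -0.22 ± 0.07 (edgeR adjusted p = 0.0428). The call was lost without KC_Epo 2 (-0.15), KC_Epo 3 (-0.21), KC_EV 1 (-0.20), KC_EV 2 (-0.22) or KC_EV 3 (-0.23), with adjusted p of up to 0.16. Keap1, the adaptor that targets NRF2 for degradation, had 73.8, 75.5 and 77.8 CPM in KC_Epo and 57.9, 58.1 and 55.9 CPM in KC_EV. All KC_Epo libraries were above all KC_EV libraries, at 0.40 ± 0.07 (edgeR adjusted p = 0.000959). Sqstm1, encoding the autophagy receptor p62 that binds KEAP1 and is itself an NRF2 target, had 337, 359 and 361 CPM in KC_Epo, against 268, 243 and 247 CPM in KC_EV, a rise of 0.48 ± 0.07 (edgeR adjusted p = 0.000391).

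Bach1, the heme-sensing repressor, stood at 68.5, 60.6 and 67.3 CPM in KC_Epo and 65.4, 66.0 and 58.3 CPM in KC_EV. These values overlapped (0.05 ± 0.08, edgeR adjusted p = 0.672). Of the small MAF proteins, the partners of NRF2, Maff fell, Mafg rose and Mafk did not pass (-0.09 ± 0.08, edgeR adjusted p = 0.436). Maff was low, with 5.56, 5.37 and 5.10 CPM in KC_Epo and 7.88, 8.82 and 8.17 CPM in KC_EV (-0.63 ± 0.17, edgeR adjusted p = 0.0131). Its call was lost without KC_Epo 3 (-0.59) or KC_EV 2 (-0.58). Mafg averaged 166 ± 15.4 CPM in KC_Epo and 133 ± 11.4 CPM in KC_EV (SD, n = 3 each) and rose by 0.31 ± 0.09, a call lost without KC_Epo 3 (0.31, adjusted p = 0.0679) or KC_EV 1 (0.24, adjusted p = 0.0625).

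Glutathione synthesis and recycling had 4 of 5 genes higher, and the cystine importer lower. Gclm was at 93.4, 102 and 102 CPM in KC_Epo 1 to 3, against 55.6, 45.3 and 45.1 CPM in KC_EV 1 to 3. The lowest KC_Epo library was well above the highest KC_EV library, and the difference was 1.03 ± 0.09 (edgeR adjusted p = 8.01e-06). Gclc, the catalytic subunit that Gclm assists, changed less, with 68.6, 62.5 and 61.7 CPM in KC_Epo and 61.0, 48.0 and 44.0 CPM in KC_EV. KC_EV 1 came close to the lowest KC_Epo library. The rise of 0.33 ± 0.11 (edgeR adjusted p = 0.0422) lost its call without KC_Epo 1 (0.29), KC_Epo 2 (0.36), KC_Epo 3 (0.37), KC_EV 2 (0.29) or KC_EV 3 (0.24). Gsr, glutathione reductase, which returns oxidised glutathione to its reduced form, had 309, 258 and 292 CPM in KC_Epo and 179, 165 and 175 CPM in KC_EV, a rise of 0.73 ± 0.08 (edgeR adjusted p = 4.16e-05). Gss, glutathione synthetase, had 25.2, 27.9 and 31.4 CPM in KC_Epo and 21.1, 19.6 and 22.2 CPM in KC_EV. It rose by 0.42 ± 0.11 (edgeR adjusted p = 0.0107), a call lost without KC_Epo 3 (0.35) or KC_EV 2 (0.38).

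Slc7a11, the cystine importer of system xc-, was near the limit of detection. It had 7, 26 and 8 counts in KC_Epo 1 to 3, or 0.225, 0.837 and 0.365 CPM, against 196, 40 and 40 counts in KC_EV 1 to 3, or 6.18, 1.28 and 1.18 CPM. KC_EV 1 stood apart from the other KC_EV libraries. The difference was -2.57 ± 0.82 (edgeR adjusted p = 0.0461), and without KC_EV 1 it was -1.35 and did not pass (adjusted p = 0.136). It also did not pass without KC_Epo 1 (-2.21) or KC_Epo 3 (-2.43).

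In the thioredoxin system Txnrd1 and Srxn1 rose, Txn1 fell, and Txn2, Txnrd2 and Glrx did not pass. Txnrd1, the cytosolic thioredoxin reductase, was at 271, 273 and 274 CPM in KC_Epo and 164, 146 and 156 CPM in KC_EV. The KC_Epo libraries were nearly equal, and the difference was 0.81 ± 0.07 (edgeR adjusted p = 6.52e-06). Its substrate Txn1, cytosolic thioredoxin, moved the other way, with 615, 629.7 and 632 CPM in KC_Epo, against 852, 733 and 791 CPM in KC_EV. No KC_Epo library reached the lowest KC_EV library (-0.34 ± 0.08, edgeR adjusted p = 0.00505). Srxn1, sulfiredoxin, which repairs overoxidised peroxiredoxins, had 36.5, 35.5 and 36.3 CPM in KC_Epo and 30.3, 25.7 and 26.3 CPM in KC_EV, a rise of 0.40 ± 0.09 (edgeR adjusted p = 0.00656).

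The mitochondrial counterparts changed less. Txn2 had a value of 0.20 ± 0.08 (edgeR adjusted p = 0.0622) and passed without KC_Epo 1 (0.25, adjusted p = 0.0266). Txnrd2 was at 0.10 ± 0.09 (adjusted p = 0.416). Glrx, the cytosolic glutaredoxin, was at 0.22 ± 0.10 (adjusted p = 0.0998) and passed without KC_EV 1 (0.32, adjusted p = 0.026). Txn2, Txnrd2, Prdx3 and Sod2, a set of 4 mitochondrial forms, were put together after their values were seen. Of these 0 rose and 1, Sod2, fell, too few to set beside the 16.9% and 15.4% of all genes. The set does not hold every mitochondrial form: Idh2, of the further lists, rose (0.45 ± 0.09).

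NADPH, the reductant that both systems consume, comes in large part from the pentose phosphate pathway, and G6pdx, Pgd, Taldo1 and Tkt of that pathway rose. Of its other enzymes, described with the further lists, Pgls rose, and Rpe (0.24 ± 0.09, edgeR adjusted p = 0.0654) and Rpia (-0.17 ± 0.10, edgeR adjusted p = 0.222) did not pass. G6pdx, the entry enzyme glucose-6-phosphate dehydrogenase, was at 179.8, 227 and 199.8 CPM in KC_Epo 1 to 3 and 132, 113 and 130.1 CPM in KC_EV 1 to 3 (0.70 ± 0.09, edgeR adjusted p = 0.000228). Pgd, the next dehydrogenase of the pathway, had 412, 455 and 433 CPM in KC_Epo and 301, 289 and 297 CPM in KC_EV (0.55 ± 0.07, edgeR adjusted p = 0.000118). Taldo1, transaldolase of the non-oxidative branch, had 536, 668 and 637 CPM in KC_Epo and 385, 411 and 416 CPM in KC_EV (0.60 ± 0.09, edgeR adjusted p = 0.000325). For each of these 3 genes every KC_Epo library was above every KC_EV library, and KC_Epo 2 was the highest. Tkt, transketolase, averaged 361 ± 42.2 CPM in KC_Epo and 291 ± 12.1 CPM in KC_EV (SD, n = 3 each) and rose by 0.31 ± 0.09 (edgeR adjusted p = 0.0171), a call lost without KC_Epo 3 (0.31), KC_EV 2 (0.29) or KC_EV 3 (0.31). Me1, cytosolic malic enzyme, was at 1.13 to 2.51 CPM in KC_Epo and 1.85 to 4.51 CPM in KC_EV and did not pass.

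The 6 peroxiredoxins, thiol peroxidases that thioredoxin or glutathione recharges, showed no common direction: 1 rose, 1 fell and 4 did not pass. Each share, 16.7%, was near that of all genes tested, 16.9% higher and 15.4% lower. Prdx1 was at 873, 956 and 912 CPM in KC_Epo and 759, 705 and 713 CPM in KC_EV, with no overlap (0.33 ± 0.07, edgeR adjusted p = 0.00464, but 0.0550 with library sizes only). Prdx6, which uses glutathione and also acts on phospholipid peroxides, had 31.5, 30.9 and 35.4 CPM in KC_Epo and 48.6, 41.6 and 40.1 CPM in KC_EV (-0.41 ± 0.10, edgeR adjusted p = 0.00691). The highest KC_Epo library was below the lowest KC_EV library. Prdx3, the mitochondrial form, had 50.3, 57.3 and 51.9 CPM in KC_Epo and 52.0, 37.5 and 43.7 CPM in KC_EV (0.26 ± 0.11, edgeR adjusted p = 0.0947), and passed without KC_EV 1 (0.39, adjusted p = 0.0178). Prdx2, abundant in red cells, was at -0.01 ± 0.08, Prdx4, the form of the endoplasmic reticulum, at 0.08 ± 0.12, and Prdx5 at -0.05 ± 0.08, and all 3 overlapped between groups.

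Of the dismutases, catalase and glutathione peroxidases, 4 of 6 genes rose and 1 fell. Gpx3 was at 233, 261 and 246 CPM in KC_Epo 1 to 3, against 77.3, 77.9 and 77.9 CPM in KC_EV 1 to 3. The KC_EV libraries were nearly equal, and the difference of 1.66 ± 0.07 (edgeR adjusted p = 3.69e-08) was the largest rise among the 43 genes. Gpx4, which protects membranes from lipid peroxides, had 182, 199 and 193 CPM in KC_Epo and 131, 161 and 157 CPM in KC_EV (0.35 ± 0.09, edgeR adjusted p = 0.00797, but 0.0915 with library sizes only). Gpx1, the cytosolic form, had 1526, 1949.6 and 1794 CPM in KC_Epo and 1381, 1472 and 1508 CPM in KC_EV. KC_Epo 1 was close to KC_EV 3, and the rise of 0.27 ± 0.09 (edgeR adjusted p = 0.0417) lost its call without KC_Epo 2 (0.20), KC_Epo 3 (0.27), KC_EV 1 (0.24), KC_EV 2 (0.28) or KC_EV 3 (0.30). Cat, catalase, which splits hydrogen peroxide in peroxisomes, had 244, 231 and 224 CPM in KC_Epo and 145, 133 and 125 CPM in KC_EV (0.80 ± 0.08, edgeR adjusted p = 1.43e-05).

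The dismutases turn superoxide into hydrogen peroxide, and neither rose. Sod2, the mitochondrial manganese enzyme, averaged 117 ± 2.99 CPM in KC_Epo and 143 ± 9.93 CPM in KC_EV (SD, n = 3 each) and fell by 0.29 on the log2 scale (SE 0.07, edgeR adjusted p = 0.00865). Sod1, the cytosolic copper and zinc enzyme, averaged 266 ± 39.3 CPM in KC_Epo and 301 ± 12.5 CPM in KC_EV. It did not pass at -0.18 ± 0.10 (adjusted p = 0.188), but passed as lower without KC_Epo 2 (-0.28, adjusted p = 0.0275). Gpx1, Gpx3, Gpx4, Txnrd1 and Txnrd2 are selenocysteine enzymes. Of these 5, grouped after their values were seen, 4 rose and 1 did not pass. A set so small and so chosen cannot be set beside the 16.9% of all genes that rose. Of the selenoproteins and selenium machinery listed further on, 2 of 21 genes rose.

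Among the genes of conjugation and export 4 of 8 rose and none fell. Mgst1 had 212, 153 and 176 CPM in KC_Epo 1 to 3 and 59.6, 67.8 and 58.7 CPM in KC_EV 1 to 3 (1.54 ± 0.12, edgeR adjusted p = 1.08e-05). Gstm1, a cytosolic glutathione transferase with close relatives that can share its reads, had 77.9, 79.1 and 76.1 CPM in KC_Epo and 35.8, 45.9 and 48.2 CPM in KC_EV (0.84 ± 0.10, edgeR adjusted p = 9.35e-05). Gsto1, an omega-class transferase with glutaredoxin-like chemistry, had 92.0, 115 and 98.8 CPM in KC_Epo and 70.0, 63.4 and 64.3 CPM in KC_EV (0.63 ± 0.09, edgeR adjusted p = 0.000256). For each of the 3, all KC_Epo libraries were above all KC_EV libraries. Abcc1, the transporter MRP1 that exports glutathione conjugates, had 193, 174 and 179.6 CPM in KC_Epo and 137, 127 and 134 CPM in KC_EV (0.46 ± 0.07, edgeR adjusted p = 0.000488). Gstp1, which also has close relatives, Mgst2 and Mgst3 did not pass, at -0.06 ± 0.08, -0.74 ± 0.33 and 0.15 ± 0.22.

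Nqo1, the quinone reductase that often serves as a readout of NRF2 activity, was barely detected outside 1 library. It had 23, 17 and 35 counts in KC_Epo 1 to 3, or 0.739, 0.547 and 1.60 CPM, against 755, 31 and 17 counts in KC_EV 1 to 3, or 23.8, 0.991 and 0.502 CPM. The level in KC_EV 1 made the difference of -3.17 ± 1.83 (edgeR adjusted p = 0.267). Without KC_EV 1 the difference was 0.34 and did not pass (adjusted p = 0.724). The cholangiocyte marker sum (6 markers, 0 higher and 2 lower) was likewise highest in KC_EV 1, at 4.60 to 8.16 CPM in KC_Epo 1 to 3 and 45.9, 19.3 and 17.0 CPM in KC_EV 1 to 3, but this was the keratin gene Krt7 alone, with 63, 41 and 28 counts in KC_Epo 1 to 3 and 1131, 115 and 145 counts in KC_EV 1 to 3. Among the other markers, Krt19, Sox9 and Cldn4 were lowest in KC_EV 1 among the KC_EV libraries, and Epcam was highest there. Of the other NRF2 targets listed further on, Mt2 was also highest there, with 2275, 522 and 535 counts in KC_EV 1 to 3. So were Pir (107, 4 and 12 counts) and Aldh3a1 (31, 3 and 2 counts), both too low to be tested. Gpx2 of the same list was lowest there (1, 25 and 39 counts). How many genes of that list were highest in KC_EV 1 was not counted.

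Osgin1, a growth inhibitor induced by oxidative stress through NRF2, had 72.3, 69.9 and 78.0 CPM in KC_Epo and 42.0, 42.5 and 44.8 CPM in KC_EV. All KC_Epo libraries were above all KC_EV libraries (0.77 ± 0.08, edgeR adjusted p = 1.83e-05).

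**Figure D2:**
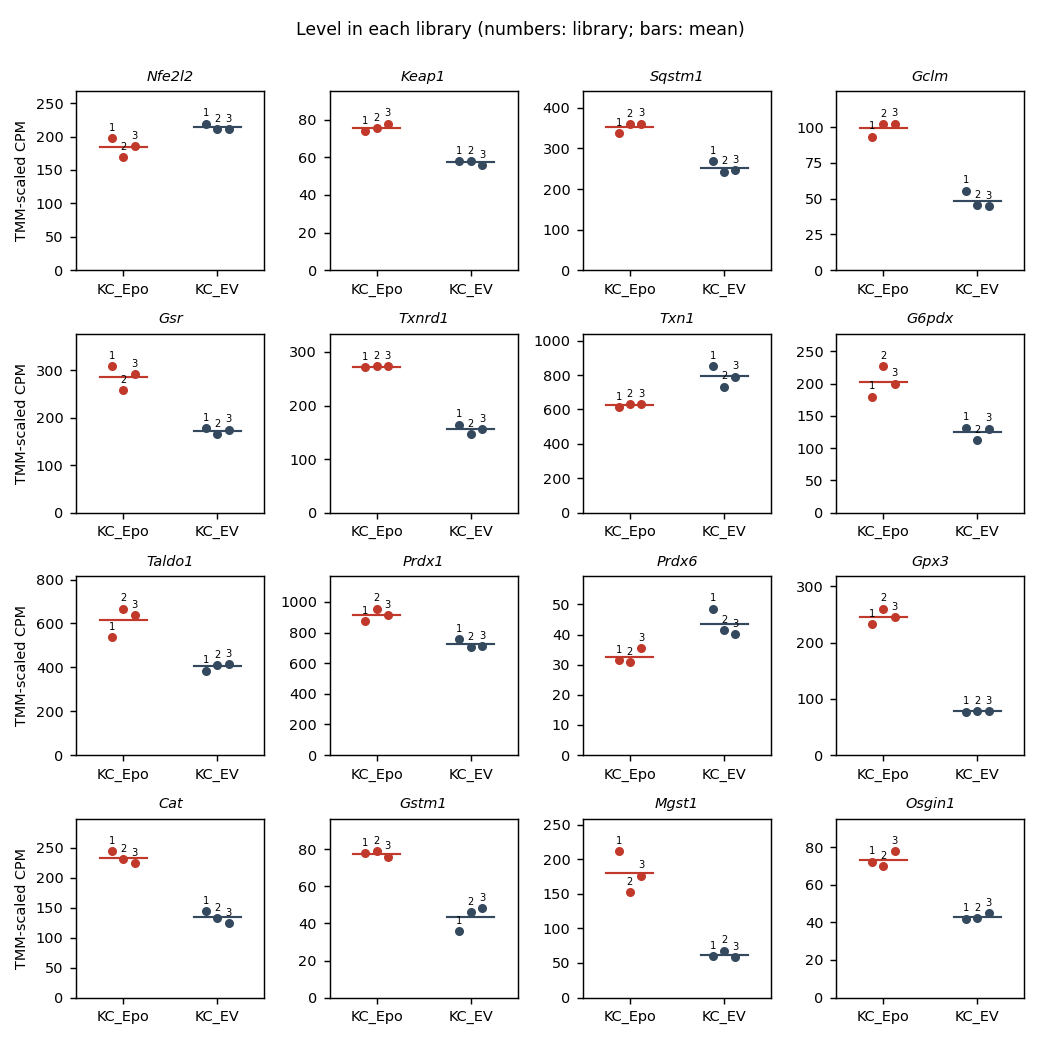
TMM-scaled CPM (y axes, from 0) of 16 genes in each library, KC_Epo left and KC_EV right, with the library number above each point and a bar at the group mean. These 16 were picked from the 43 genes, and the groups do not overlap in any panel. Nfe2l2, Txn1 and Prdx6 are lower in KC_Epo. Of all 43 genes, 24 were apart as higher and 7 as lower, against 24.1% and 24.2% of all genes tested.

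Ratios of 2 genes within a library do not depend on the size factors. For 12 pairs set by function or compartment the log2 ratio was compared between groups with a two-sided exact permutation test, whose smallest possible p with 3 libraries a group is 0.1. For 9 pairs the groups did not overlap and p was 0.1 (adjusted p = 0.133 over the 12 pairs), so none could pass. The ratio Txnrd1:Txnrd2 was 2.94, 2.97 and 3.09 in KC_Epo, against 2.46, 2.16 and 2.24 in KC_EV, a difference of 0.71. The ratio Txn1:Txn2 was 2.34, 2.25 and 2.27 in KC_Epo and 3.08, 2.68 and 2.74 in KC_EV, a difference of -0.55. In these libraries the ratio of cytosolic to mitochondrial form was higher in KC_Epo for the reductase and lower for thioredoxin. The pairs reuse the counts of genes described above, and the share of other gene pairs that do not overlap was not counted. Of single genes tested, 24.1% were apart as higher and 24.2% as lower.

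The ratio Gclm:Gclc was 0.44, 0.70 and 0.73 in KC_Epo and -0.13, -0.08 and 0.03 in KC_EV, a difference of 0.69 between the subunits of 1 enzyme. The ratio Keap1:Nfe2l2 was -1.42, -1.16 and -1.25 in KC_Epo and -1.92, -1.86 and -1.91 in KC_EV, a difference of 0.62. The adaptor was higher relative to its target in every KC_Epo library. For Bach1:Nfe2l2 the difference was 0.27, for Prdx1:Prdx2 it was 0.35, and for Prdx5:Prdx3 it was -0.32. The wider differences of 1.21 for G6pdx:Me1 and 1.36 for Mgst1:Mgst3 involve a gene of few counts. The groups overlapped for Sod2:Sod1 (-0.10), Gpx1:Gpx4 (-0.09) and Srxn1:Prdx3 (0.13).

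**Figure D3:**
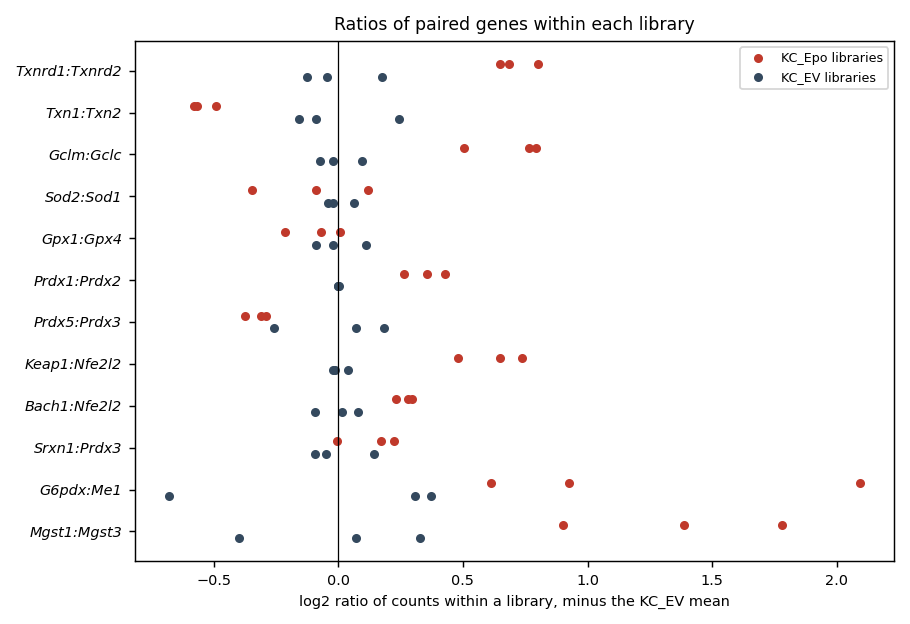
Log2 ratio of the counts of paired genes within each library, minus the mean of the KC_EV libraries for that pair (x axis), with KC_Epo points above KC_EV points in each row. The KC_Epo and KC_EV points are apart for 9 of 12 pairs and overlap for Sod2:Sod1, Gpx1:Gpx4 and Srxn1:Prdx3.

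The KC_Epo libraries differed in the transcripts of other cells. From KC_Epo 1 to 3 the hepatocyte sum was 25750.3, 7684 and 15526 CPM, the erythroid sum 1109, 606 and 811 CPM, and the Kupffer cell sum 56177, 64387 and 59297 CPM. Of the 43 genes, 20 had the order of the Kupffer cell sum, highest in KC_Epo 2 and lowest in KC_Epo 1, as did 26.0% of all genes tested. G6pdx, Pgd, Taldo1, Tkt, Gpx1, Gpx3 and Gpx4 were among the 20. The reverse order, that of the hepatocyte and erythroid sums, was found for 7 genes and for 26.7% of all. These 7 were Mgst1, Gsr, Srxn1, Abcc1, Nfe2l2, Bach1 and Me1.

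Mgst1, Cat and Gstm1 are also abundant in hepatocytes. With KC_Epo 2, the library lowest in hepatocyte and erythroid transcripts, as the only KC_Epo library, log2 fold changes were 1.31 for Mgst1 (edgeR adjusted p = 2.78e-06), 0.80 for Cat, 0.88 for Gstm1, 1.76 for Gpx3, 1.08 for Gclm, 0.82 for Txnrd1 and 0.87 for G6pdx, and 21 of the 43 genes were higher and 4 lower. The calls for Maff, Slc7a11, Gclc and Srxn1 were lost there, at -0.61, -1.77, 0.30 and 0.38. In this fit the single library was assumed to vary like those of KC_EV. KC_Epo 2 itself had a hepatocyte sum above every KC_EV library. The Kupffer cell marker sum differed by 0.58 on the log2 scale between group means (11 of 15 markers higher and 1 lower). Single markers ran from -0.72 (Adgre1) to 1.11 (Cd163). Of the 43 genes, 11 had a larger log2 fold change than the sum: Gpx3, Mgst1, Gclm, Gstm1, Txnrd1, Cat, Osgin1, Gsr, G6pdx, Gsto1 and Taldo1. The share of all genes above the sum was not counted, so the 11 have no background beside them.

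**Figure D4:**
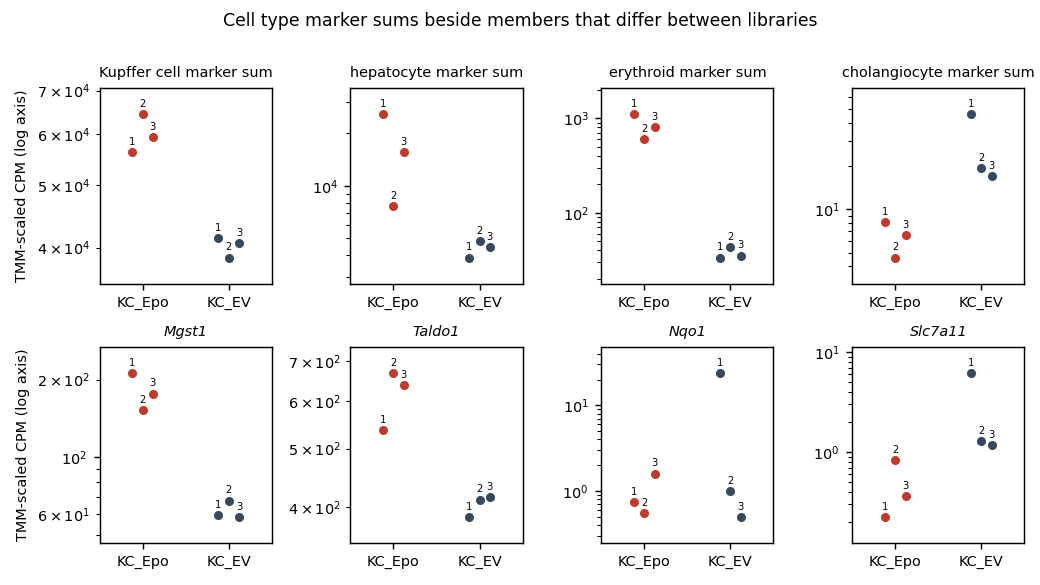
Summed TMM-scaled CPM of 4 cell type marker lists (upper row) and CPM of 4 genes (lower row) in each library on log axes, KC_Epo left and KC_EV right, with the library number above each point. Mgst1 has the order of the hepatocyte sum within KC_Epo, Taldo1 that of the Kupffer cell sum, and Nqo1 and Slc7a11 are highest in KC_EV 1. The cholangiocyte sum is also highest there, through Krt7 alone.

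Other genes of these pathways came from lists made by function, with earlier results of these data known. The lists held 155 genes, of which 1 was absent and 10 were under the filter. Of the 144 tested, 36 were higher (25%, against 16.9% of all genes tested) and 18 lower (12.5%, against 15.4%). The 18 became 11 without KC_Epo 3 or without KC_EV 3, and 10 with KC_Epo 2 as the only KC_Epo library. Of 27 other NRF2 targets 13 rose (48.1%) and 3 fell (11.1%), with a median log2 fold change of 0.29. Hmox1, heme oxygenase, was at 4621, 5100.3 and 4773 CPM in KC_Epo and 1327, 1241 and 1319.7 CPM in KC_EV, with no overlap (1.90 ± 0.08). Slc48a1, a heme transporter, was at 1.57 ± 0.09, Abcc3, an exporter of conjugates, at 0.90 ± 0.07, and Ephx1, an epoxide hydrolase, at 0.73 ± 0.09.

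The other NADPH sources had 7 of 16 genes higher (43.8%, against 16.9% of all genes), none lower and 9 that did not pass. Pgls, Rpe and Rpia of the pentose phosphate pathway were among the 16. H6pd, which runs the same first reactions inside the endoplasmic reticulum, was at 0.80 ± 0.07 (edgeR adjusted p = 6.27e-06). Idh1 and Idh2, the NADP-dependent isocitrate dehydrogenases of cytosol and mitochondria, were at 0.64 ± 0.09 and 0.45 ± 0.09, and Pgls, the lactonase between G6pdx and Pgd, at 0.55 ± 0.09.

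The other glutathione genes (6 of 35 higher, 4 lower) and the other thioredoxin and redox genes (7 of 33 higher, 6 lower) had shares close to the background. Slc3a2, the heavy chain that pairs with the Slc7a11 protein, was at 0.40 ± 0.08, and Oplah, 5-oxoprolinase of the glutathione cycle, at 0.62 ± 0.09. Slc1a5, a glutamine importer, was at -0.79 ± 0.09. Chac1, which degrades glutathione, had 4, 1 and 3 counts in KC_Epo and 47, 32 and 58 counts in KC_EV (-3.81 ± 0.63, edgeR adjusted p = 0.00077). Nos2, inducible nitric oxide synthase, was at -2.62 ± 0.32, and Cybb, the catalytic subunit of the phagocyte NADPH oxidase, at 0.50 ± 0.08. Msrb1, a selenocysteine methionine sulfoxide reductase, was at 0.62 ± 0.10 and Txndc5, a thioredoxin-domain protein of the endoplasmic reticulum, at 0.40 ± 0.08.

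Of 12 partners of NRF2 and its relatives 1 rose (8.33%) and 2 fell (16.7%), against 16.9% and 15.4% of all genes tested. Gsk3b, a kinase that marks NRF2 for degradation apart from KEAP1, was at 0.49 ± 0.07 (edgeR adjusted p = 0.000268). Rbx1, of the ubiquitin ligase that works with KEAP1, was at -0.25 ± 0.07, a call lost without KC_Epo 1 (-0.20), KC_EV 2 (-0.22) or KC_EV 3 (-0.25). Trim21 was at -0.26 ± 0.09, a call that was lost without any 1 of KC_Epo 1 (-0.23), KC_Epo 3 (-0.20), KC_EV 1 (-0.23), KC_EV 2 (-0.30) or KC_EV 3 (-0.25). Nfe2, a relative of NRF2 known from the erythroid and platelet lineages, did not pass at -0.69 ± 0.25, and passed as lower without KC_Epo 1 (-0.83) or KC_EV 1 (-0.84).

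Selenoproteins and the selenium machinery had 2 of 21 genes higher (9.52%) and 3 lower (14.3%), the second close to the background of 15.4%. Selenos, of the endoplasmic reticulum, was at 0.47 ± 0.07 (edgeR adjusted p = 0.000276). Sephs2, which makes the selenium donor, was at -0.38 ± 0.10, a call lost without KC_EV 1 (-0.35) or KC_EV 3 (-0.31). Trnau1ap, which acts with the selenocysteine tRNA, was at -0.26 ± 0.08, a call lost without KC_Epo 2 (-0.22), KC_Epo 3 (-0.27), KC_EV 2 (-0.25) or KC_EV 3 (-0.22). Selenom was at -0.71 ± 0.21, a call lost without KC_Epo 1 (-0.57), KC_Epo 3 (-0.69), KC_EV 2 (-0.75) or KC_EV 3 (-0.54).

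Across 17 other settings of scaling, filter, test and libraries, 26 of the 43 genes stayed on the same side of the threshold. These were 15 of the 23 that rose, 3 of the 6 that fell and 8 of the 14 that did not pass. Keap1, Sqstm1, Gclm, Gsr, Txnrd1, G6pdx, Pgd, Taldo1, Cat, Gpx3, Mgst1, Gstm1, Gsto1, Abcc1 and Osgin1 rose in every one, and Txn1, Prdx6 and Sod2 fell in every one.

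**Figure D5:**
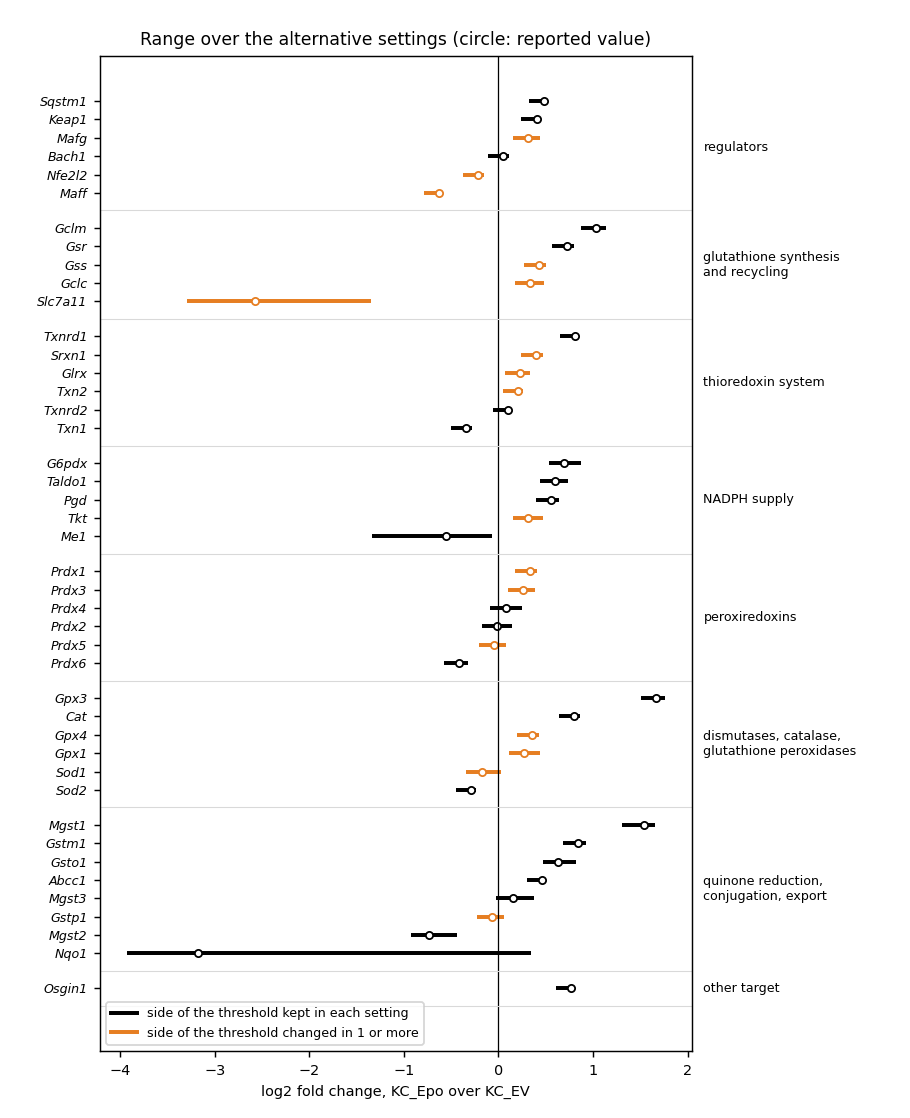
Range of the log2 fold change of KC_Epo over KC_EV (x axis) over the reported and 17 other settings for each of the 43 genes, with a circle at the reported value. Black bars mark the 26 genes that kept their side of the 0.05 threshold in each setting, and orange bars the 17 that did not. Nqo1 and Slc7a11 have the longest bars.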

How the data were processed

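RNA-seq libraries were made with a stranded polyA kit, per the labels' protocols. The deposited values are raw read counts per gene symbol for 6 libraries. The submitters' processing notes name build GRCm39 and, with no order or role, HTSeq 0.11.2, STAR 2.7.3a, Bowtie2 2.5.1 and FastQC 0.11.8. How multi-mapping reads were counted is not stated there, so reads shared by close paralogues may have been dropped or split.

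Counts were filtered with filterByExpr (minimum count 10), which left 13120 of 15458 rows, scaled by TMM and tested with the robust quasi-likelihood F test of edgeR 4.0.16 in R 4.3.3, with Benjamini-Hochberg adjustment over all rows tested and a threshold of 0.05. The SE is the log2 fold change divided by the square root of F. DESeq2 1.42.0, voom in limma 3.58.1, other scalings and filters, and fits without each library were alternatives. Ratios within libraries used counts plus 0.5 (alternative 2) and exact permutation tests. The test was run on simulated counts, with 200 genes changed and the same dispersion for every gene. Of 12830 unchanged genes 5 were called, as were 39 of 50 changed 1.5-fold and 48 of 50 changed 2-fold. Far fewer genes changed there than were called in these data, and no shift in cell content was simulated. It is therefore no check of the scaling. The libraries closest to each other within a group still differed by a chi-square of 6.03 per gene, so none was counted as a copy.

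The members and lists were chosen with earlier results of these data known, the members by name. Values per library are given for Nfe2l2, Keap1, Bach1, Nqo1, Gclc, Gclm, Slc7a11, Txnrd1, Srxn1 and Hmox1 and, in each role, for the 3 genes of smallest adjusted p and the 1 of largest mean CPM, and of each other list the 4 genes of smallest adjusted p are named. Mafk, Rpe, Rpia, Mt2, Pir, Aldh3a1, Gpx2 and single cell type markers such as Krt7 were named after their values were seen. A gene on 2 lists counts in the first. Promoter windows are from RefSeq (GRCm38.p6).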

Additional observations from a re-analysis of the deposited data

How the results depend on the processing

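No called direction reversed in any setting tried. With library sizes only, 1193 genes of the whole table were higher and 3616 lower, 15 of the 43 genes were higher and 34 genes of the other lists were lower, beside a shift of the median of all genes to -0.16. With KC_Epo 2 as the only KC_Epo library 10 genes of the other lists were lower. Leaving out 1 library at a time gave 1477 to 2410 higher and 1251 to 2147 lower over the table, 18 to 23 higher and 3 to 6 lower of the 43, and 24 to 38 higher and 11 to 17 lower on the other lists. Fewer samples enter these fits, and the cause of the differences between libraries was not tested. Libraries with the same number were not positively correlated (-0.15 to -0.0407 with group means removed), and those of different number ran from 0.0029 to 0.126. Correlations this small cannot decide whether the numbers pair the samples, and the labels do not say. With the replicate number as a block 1800 genes were higher and 1558 lower over the table, 21 and 4 of the 43, and 27 and 15 on the other lists. Calls lost with the block were those of Nfe2l2 (adjusted p = 0.0650), Slc7a11 (0.118), Tkt (0.0521), Gpx1 (0.0585) and, on the other lists, Trim21 (0.0896). A block cannot move a difference of means between groups that hold the same numbers, so the ratios (0.71 for Txnrd1:Txnrd2) are no check of it. Other settings ended the calls of Nfe2l2 and Slc7a11 without a filter, of Slc7a11 with the filter of 1 CPM and with voom, of Gclc and Gpx1 with upper-quartile factors and without the robust fit, of Gpx1 with voom, and of Trim21 without a filter, without the robust fit, with voom and with DESeq2. Nfe2 was called lower under upper-quartile scaling (-0.75) and by library sizes alone (-0.85). DESeq2 gave no adjusted p for Nqo1. At 7 to 196 counts for Slc7a11 and 17 to 755 for Nqo1, depth limits what can be said of these genes.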
